A study of Mus musculus with 6 samples.

Results

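The genes described are 8 chosen genes for VEGF receptors, neuropilins and VEGF ligands in a table of 14005 genes from FLK1+ mesodermal cells. They are the receptors Kdr, Flt1 and Flt4, the co-receptors Nrp1 and Nrp2, and the ligands Vegfa, Vegfb and Vegfc. They were found by their gene symbols, 1 row each. A further ligand in the table, Figf (VEGFD), is given beside Vegfc. RNA was sequenced from cells of day 3.5 embryoid bodies (EBs), aggregates of differentiating mouse embryonic stem (ES) cells, with 3 wild-type (WT) libraries from the J1 ES cell line and 3 from ES cells without the blood transcription factor SCL, whose gene (Tal1) is disrupted in the Scl-/- line. The cells were labelled with an antibody to FLK1 and held back on magnetic columns, and the libraries come from 3 separate differentiations. The genotype is given by 1 mutant line, so genotype and line cannot be told apart. The strain field of the labels reads C57Bl/6 X Sv129 for WT replicates 1 and 2 and Scl-/- replicate 1, C57Bl/6 X Sv130 for Scl-/- replicate 2, C57Bl/6 X Sv131 for WT replicate 3 and C57Bl/6 X Sv132 for Scl-/- replicate 3. In sample order the number rises by 1 per library from WT replicate 2 on, which may be an error of filling in the field. Whether the backgrounds differ cannot be told from the labels.

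VEGF ligands are secreted proteins that bind tyrosine kinase receptors on the cell surface. VEGFA signals mainly through FLK1 (VEGFR2, the product of Kdr), while FLT1 (VEGFR1) binds VEGFA and VEGFB and acts largely as a decoy in the early embryo, and FLT4 (VEGFR3) is the main receptor of VEGFC. The neuropilins NRP1 and NRP2 have no kinase of their own and serve as co-receptors for VEGF ligands and for class 3 semaphorins. In the mouse embryo FLK1 marks the mesoderm from which blood and vessels arise, and embryos without it form neither. Because FLK1 was also the selection marker, Kdr had to be expressed in every library, and its level is a property of the isolated cells as well as of the genotype.

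All 6 libraries had 38623641 to 47621120 reads on the listed genes, worked out from the smallest step between values, and 3 reads correspond to 0.0615 to 0.0784 on the counts-per-million (CPM) scale. The 8 genes lay far above that floor, with 529 reads in the thinnest case (Vegfc) and 40780 in the highest (Nrp2). Tal1, the disrupted gene, stood at 264 ± 70.5 CPM in the WT libraries and 6.97 ± 2.06 CPM in the Scl-/- libraries (SD, n = 3 each), which matches the labels. Same-numbered libraries deviated together from their group means, so each comparison is given from a limma model with condition only and, where the call differs, from a limma model that also holds the replicate number as a block. A gene is called where its adjusted p (Benjamini-Hochberg over 13991 tested genes) is below 0.05 and its log2 fold change is beyond 0.48 in either direction. Fold changes are on the scale of log2(CPM + 0.5) and are given as Scl-/- minus WT.

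The sequences upstream of 3 of the genes are shown, Kdr, Flt1 and Vegfa, whose values did not overlap between the groups, as described below. Whether the windows bear on the changes was not tested. Each is the 250 bases before the RefSeq transcription start, located by exact match in the mm9 assembly on the minus strand: chr5:76374481-76374730 for Kdr, chr5:148537588-148537837 for Flt1 and chr17:46169327-46169576 for Vegfa. The Kdr window reaches 3 bases into the gene as GENCODE draws it, and the other 2 windows end at the gene's edge. They are printed 5′ to 3′. Capitals mark every match, on either strand, to the letters CANNTG (E-box), GATAA (GATA motif), GGAAG (ETS core) or ACGTG (hypoxia response core). Only these letters were searched, here and in the counts below, so other forms of the motifs are not marked. The paper lists AGGAA as its ETS motif, which is marked here only where a G follows.
Kdr: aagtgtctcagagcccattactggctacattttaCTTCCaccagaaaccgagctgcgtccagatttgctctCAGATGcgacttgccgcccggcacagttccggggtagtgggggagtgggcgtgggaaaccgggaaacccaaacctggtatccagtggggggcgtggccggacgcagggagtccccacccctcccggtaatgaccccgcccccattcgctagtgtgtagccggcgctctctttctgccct
Flt1: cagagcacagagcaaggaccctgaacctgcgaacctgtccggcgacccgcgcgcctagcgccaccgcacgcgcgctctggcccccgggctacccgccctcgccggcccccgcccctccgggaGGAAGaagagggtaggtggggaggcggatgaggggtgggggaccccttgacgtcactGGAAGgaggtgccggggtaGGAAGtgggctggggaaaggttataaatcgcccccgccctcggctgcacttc
Vegfa: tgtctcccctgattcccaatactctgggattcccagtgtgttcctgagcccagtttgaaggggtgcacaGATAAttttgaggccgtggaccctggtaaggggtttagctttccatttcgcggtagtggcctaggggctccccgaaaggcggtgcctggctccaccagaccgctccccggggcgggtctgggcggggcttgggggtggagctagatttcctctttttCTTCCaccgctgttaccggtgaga
The Kdr window held 1 E-box, CAGATG, 179 bases before the start, and 1 ETS core. The Flt1 window held 3 ETS cores, at 128, 71 and 52 bases before the start, and no E-box or GATA motif. The Vegfa window held 1 GATA motif and 1 ETS core and no hypoxia core. Such short motifs are common: of 32807 mouse windows of the same length, 66.2% held an E-box, 64.1% an ETS core, 22.6% a GATA motif and 16.6% a hypoxia core. A match describes the letters of a window and not the binding of a factor.

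Of the 8 genes, Flt1 fell in the Scl-/- libraries in both models, Vegfa fell and Flt4 rose in the model with the replicate block only, and the others were not called. The log2 fold changes were below 0 for 6 genes and above 0 for 2, with a median of -0.27 against 0.0090 over all tested genes. With condition only, 1 of 8 was called (12.5%) against a background of 2.36% of all tested genes, 1.57% lower and 0.793% higher. With the block, 3 of 8 were called (37.5%) against a background of 12.6%, 6.60% lower and 6.04% higher. The values of the 2 groups did not overlap for Kdr, Flt1 and Vegfa, each time with every Scl-/- library lower (3 of 8 genes). Over all tested genes the groups did not overlap for 21.6%, and for 10.7% with Scl-/- the lower group.

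**Figure D1:**
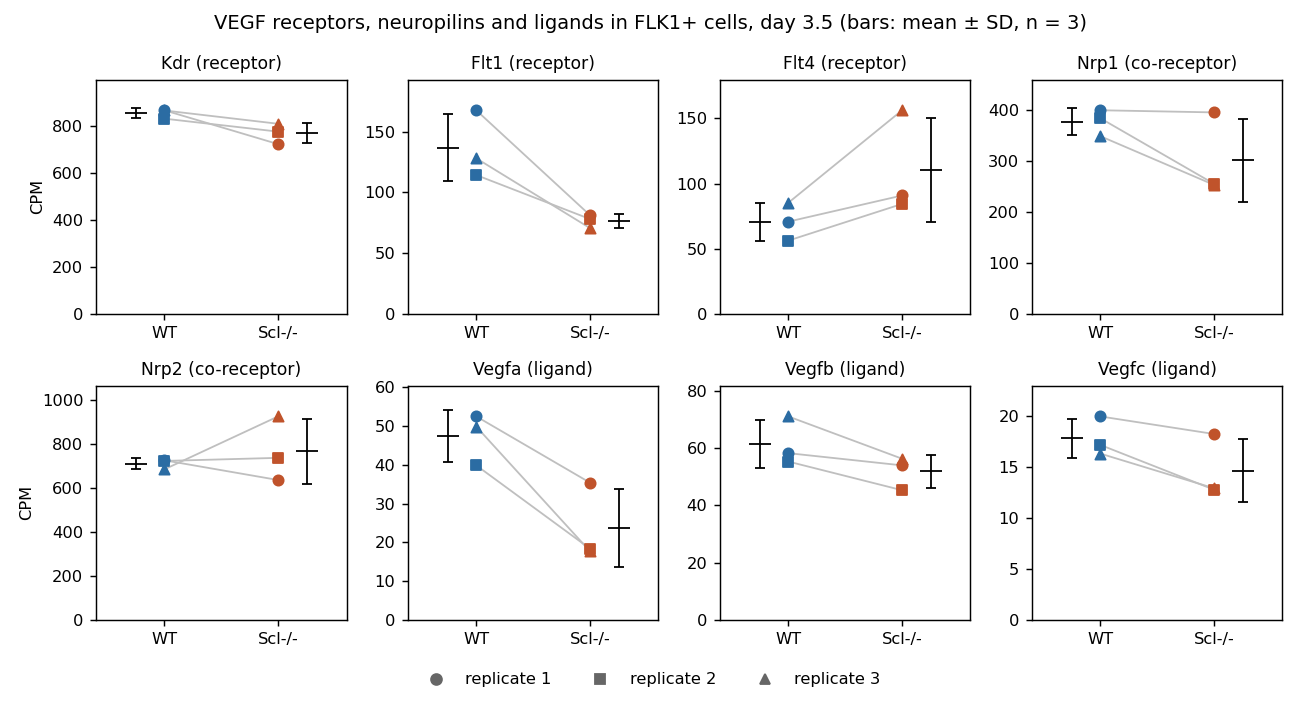
Level of each of the 8 genes in every library (y axis, CPM, from 0) for WT and Scl-/-, with circles, squares and triangles for replicates 1, 2 and 3, grey lines between same-numbered libraries and bars for the mean ± SD of 3 libraries. Every Scl-/- point of Flt1 (70.5 to 81.1 CPM) lies below every WT point (114 to 168 CPM), and the grey lines of Flt4 all rise from WT to Scl-/-.

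Kdr stood at 868, 832 and 867 CPM in WT replicates 1 to 3 and at 724, 777 and 810 CPM in Scl-/- replicates 1 to 3. The groups did not overlap, and the Scl-/- library was the lower one in each of the 3 pairs, as it was for 26.4% of all tested genes. The difference was small, with means of 856 ± 20.4 and 770.3 ± 43.8 CPM (SD, n = 3 each), so that the Scl-/- mean was 90.0% of the WT mean. The log2 fold change of -0.15 (SE 0.09, 95% confidence interval -0.36 to 0.058) was not called by limma (adjusted p = 0.456), nor with the block (adjusted p = 0.125). The gene lies on the minus strand of chromosome 5 (mm9, chr5:76328852-76374483).

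Flt1, the VEGF decoy receptor, stood at 168, 114 and 128 CPM in WT replicates 1 to 3 and at 81.1, 78.0 and 70.5 CPM in Scl-/- replicates 1 to 3. All Scl-/- libraries lay below all WT libraries, and the Scl-/- values were closer together than the WT values. The means were 137 ± 27.7 and 76.5 ± 5.45 CPM (SD, n = 3 each), so that the Scl-/- mean was 56.0% of the WT mean. The log2 fold change was -0.82 (SE 0.15, 95% confidence interval -1.17 to -0.46), with an adjusted p in limma of 0.0399 with condition only and 0.000935 with the block. Without the block the call was close to its threshold: it was lost with no intensity trend (adjusted p = 0.0614) and on leaving out WT replicate 1 (log2 fold change -0.66), WT replicate 3 (-0.85) or Scl-/- replicate 1 (-0.86), 2 (-0.83) or 3 (-0.76), with adjusted p up to 0.148. With the block it held on leaving out each pair, with adjusted p between 0.000205 and 0.0141. The gene lies on the minus strand of chromosome 5, as Kdr does, but far from it (chr5:148373180-148537587).

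Flt4, the VEGFC receptor, stood at 70.7, 56.1 and 85.1 CPM in WT replicates 1 to 3 and at 90.8, 84.3 and 156 CPM in Scl-/- replicates 1 to 3. The groups overlapped narrowly, since Scl-/- replicate 2 was below WT replicate 3, but the Scl-/- library was the higher one in each pair, as for 29.8% of all tested genes. The log2 difference within pairs was 0.36, 0.58 and 0.87. A log2 fold change of 0.61 (SE 0.25) was not called with condition only (limma, adjusted p = 0.274) and was called with the block (adjusted p = 0.00400). With the block and without pair 3, which holds the highest value, the log2 fold change was 0.47 (adjusted p = 0.0259), just within the fold threshold, so the call was lost. The gene lies on the plus strand of chromosome 11 (chr11:49422765-49466241), and the median over the 1211 tested genes of that chromosome was 0.31 on the log2 scale. Once the median of each chromosome was subtracted in each library, the log2 fold change of Flt4 was 0.30 (adjusted p = 0.650, and 0.0303 with the block) and was called in neither model. What part this shift of the chromosome has in the value of Flt4 was not tested beyond that subtraction.

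Nrp1, the neuropilin best known as a VEGFA co-receptor, stood at 399, 383 and 348 CPM in WT replicates 1 to 3 and at 395, 255 and 252 CPM in Scl-/- replicates 1 to 3. Scl-/- replicate 1 lay among the WT values and the other 2 Scl-/- libraries lay well below them. Its log2 fold change was -0.36 (SE 0.18, limma adjusted p = 0.367). With the block the adjusted p was 0.0409, but the change stayed within the fold threshold, and Nrp1 was not called. Without Scl-/- replicate 1 it was called (log2 fold change -0.57, adjusted p = 0.0463), as it was with the block on leaving out pair 1 (-0.53, adjusted p = 0.000335). Nrp1 lies on the plus strand of chromosome 8 (chr8:130882973-131029362).

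Nrp2, which pairs with FLT4 as a VEGFC co-receptor, stood at 725, 722 and 684 CPM in WT replicates 1 to 3 and at 636, 736 and 925 CPM in Scl-/- replicates 1 to 3. The WT libraries were close together and lay inside the range of the Scl-/- libraries. The log2 fold change was 0.09 (SE 0.14, 95% confidence interval -0.24 to 0.42, limma adjusted p = 0.844) and turned to -0.054 without Scl-/- replicate 3. Nrp2 lies on the plus strand of chromosome 1 (chr1:62749859-62865269), whose 789 tested genes had a median of -0.29. With the chromosome medians subtracted its log2 fold change was 0.38 (adjusted p = 0.142, and 0.0139 with the block), within the fold threshold.

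Vegfa, the principal VEGF ligand, stood at 52.5, 39.9 and 49.9 CPM in WT replicates 1 to 3 and at 35.4, 18.3 and 17.6 CPM in Scl-/- replicates 1 to 3. All Scl-/- libraries lay below all WT libraries, with Scl-/- replicate 1 nearest to them. The means were 47.4 ± 6.66 and 23.8 ± 10.04 CPM (SD, n = 3 each), so that the Scl-/- mean was 50.2% of the WT mean. The log2 fold change of -1.05 (SE 0.27, 95% confidence interval -1.67 to -0.42) was the farthest from 0 of the 8 genes. It was not called with condition only (limma, adjusted p = 0.102) and was called with the block (adjusted p = 0.00276), and the log2 differences within pairs were -0.56, -1.10 and -1.47. With condition only it was also called on leaving out Scl-/- replicate 1 (log2 fold change -1.36, adjusted p = 0.0184), and with the block it held on leaving out each pair, with adjusted p of at most 0.0339. The gene lies on the minus strand of chromosome 17 (chr17:46153942-46169326).

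Vegfb, a ligand of FLT1 and NRP1, stood at 58.2, 55.2 and 71.0 CPM in WT replicates 1 to 3 and at 53.9, 45.2 and 56.2 CPM in Scl-/- replicates 1 to 3. The groups overlapped, with the Scl-/- library lower in each pair. Limma gave a log2 fold change of -0.24 (SE 0.14, adjusted p = 0.433). With the block the adjusted p was 0.0472, within the fold threshold. The gene lies on the minus strand of chromosome 19 (chr19:7056963-7062141).

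Vegfc, the ligand of FLT4, stood at 19.99, 17.2 and 16.3 CPM in WT replicates 1 to 3 and at 18.3, 12.8 and 12.9 CPM in Scl-/- replicates 1 to 3. The groups overlapped through Scl-/- replicate 1, and the Scl-/- library was again the lower one in each pair. Its log2 fold change was -0.29 (SE 0.18, limma adjusted p = 0.473, and 0.0752 with the block). Vegfc lies on the plus strand of chromosome 8 (chr8:55162886-55271808). The remaining ligand of this group in the table, Figf (VEGFD, which binds FLT4), stood at 3.11 ± 0.285 and 2.86 ± 0.282 CPM (SD, n = 3 each), with a log2 fold change of -0.10, and Pgf was not analysed here.

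**Figure D2:**
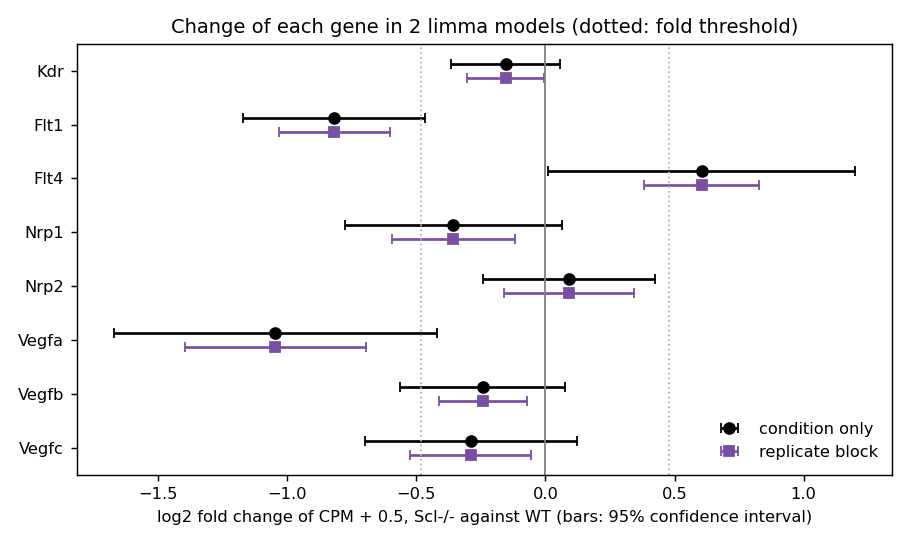
Log2 fold change of CPM + 0.5, Scl-/- against WT (x axis), for each of the 8 genes (y axis), from limma with condition only (black circles) and with the replicate block (purple squares), with 95% confidence intervals as bars and the fold threshold of 0.48 as dotted lines. The block leaves each fold change as it is and shortens its interval, and Flt1 (-0.82) and Vegfa (-1.05) lie beyond the threshold on the lower side and Flt4 (0.61) on the higher side.

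To set the genes beside each other, levels were divided by the summed length of each gene's exons, which gives CPM per kilobase. In the WT libraries Kdr was highest, at 118 ± 2.80 CPM per kilobase, followed by Nrp2 at 74.7 ± 2.44, Nrp1 at 63.8 ± 4.40 and Vegfb at 38.3 ± 5.22 (SD, n = 3 each), and none of these overlapped the next in order. Flt1 (11.8 CPM per kilobase), Vegfa (11.04), Vegfc (9.41) and Flt4 (8.58) followed, each overlapping its neighbour in the order. In the Scl-/- libraries the first 4 kept their order, and Flt4 came next at 13.4 ± 4.84 CPM per kilobase without overlap with those below it. Vegfc (7.73), Flt1 (6.60) and Vegfa (5.54) came last and overlapped. FLK1+ cells of both genotypes held far more transcript of Kdr and of the neuropilins, per length, than of the other receptors.

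Of the receptor transcripts per kilobase, Kdr made up 83.8% to 87.3% in the WT libraries and 81.6% to 86.3% in the Scl-/- libraries. The share of Flt1 was 7.53% to 10.2% in WT and 4.46% to 5.96% in Scl-/-, and that of Flt4 was 5.20% to 7.36% in WT and 8.28% to 13.9% in Scl-/-. Flt1 exceeded Flt4 in each WT library and Flt4 exceeded Flt1 in each Scl-/- library on this scale. Of the ligand transcripts per kilobase, Vegfb made up the greater part in every library, and Vegfa made up 17.6% to 20.7% in WT and 8.94% to 16.0% in Scl-/-. These shares restate the levels above and carry no test of their own. Neither levels nor shares were recomputed with the chromosome medians subtracted. That subtraction took the log2 fold change of Flt4, on chromosome 11 with a median of 0.31, from 0.61 to 0.30.

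Ratios within a library do not depend on how that library was scaled, and 5 were compared by a two-sided exact permutation test, which cannot go below p = 0.1 with 3 against 3. The log2 ratio of Flt1 to Kdr was -2.37, -2.86 and -2.75 in WT replicates 1 to 3 and -3.15, -3.31 and -3.51 in Scl-/- replicates 1 to 3. The groups did not overlap, with a difference of -0.66 (exact permutation p = 0.1, adjusted over the 5 ratios 0.25). The log2 ratio of Flt4 to Kdr was -3.61, -3.88 and -3.34 in WT and -2.99, -3.20 and -2.37 in Scl-/- replicates 1 to 3, again without overlap, with a difference of 0.76 (exact permutation p = 0.1, adjusted 0.25). This ratio was not recomputed with the chromosome medians subtracted, which took the log2 fold change of Flt4 alone from 0.61 to 0.30. The ratios of Vegfa to Kdr and of Vegfc to Flt4 differed by -0.89 each on the log2 scale, with overlapping groups (exact permutation p = 0.2, adjusted 0.25 for each), although both were lower in the Scl-/- library of every pair. The ratio of Nrp1 to Nrp2 differed by -0.45 (exact permutation p = 0.4, adjusted 0.4) and moved the other way in pair 1. An exact sign-flip test over the 3 pairs cannot go below p = 0.25 and gave p = 0.25 for the first 4 ratios and p = 0.5 for Nrp1 to Nrp2.

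**Figure D3:**
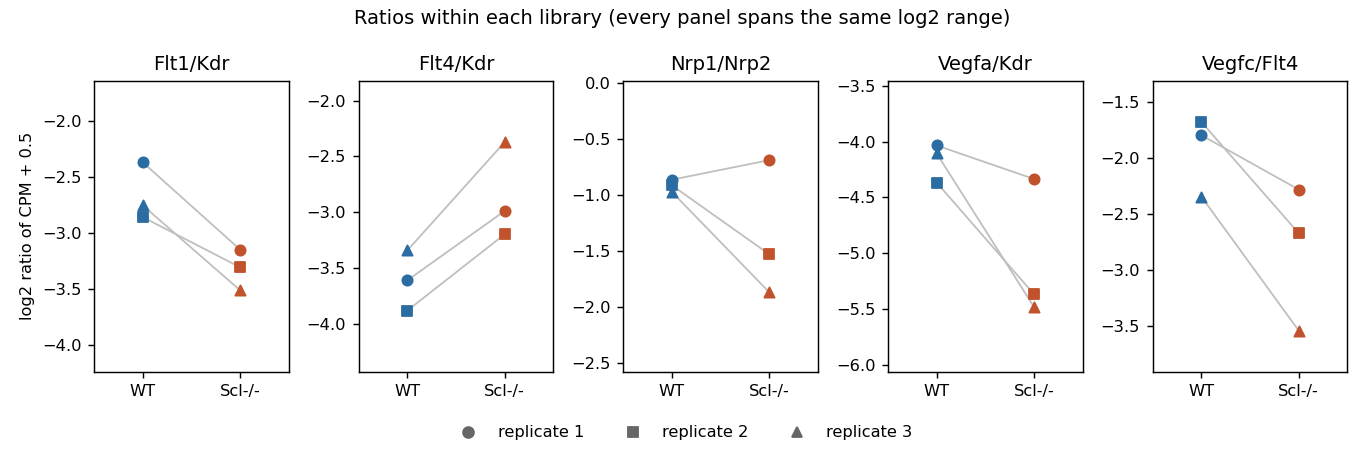
Log2 ratio of CPM + 0.5 between 2 genes within each library (y axis, every panel spanning the same range) for WT and Scl-/-, with circles, squares and triangles for replicates 1, 2 and 3 and grey lines between same-numbered libraries. Flt1 to Kdr is lower (difference -0.66) and Flt4 to Kdr higher (difference 0.76) in every Scl-/- library than in any WT library.

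The change of each gene was set beside the 5 tested genes on each side of it and beside its chromosome. Around Flt1 the median log2 fold change of the neighbours was -0.048, and they ran from -0.76 to 0.25, and around Vegfa they had a median of -0.17 and ran from -0.90 to 0.45, so that both genes were lower than all their neighbours. The margin was small: Slc46a3 stood at -0.76 beside Flt1 at -0.82, and Slc29a1 at -0.90 beside Vegfa at -1.05. Around each of the genes 2 neighbours were called lower with the block and none with condition only, and 8 of 10 neighbours of Vegfa were below 0. The 2 called around Vegfa were Slc29a1 and Gm17080 (-0.87), and Gm17080 lies within the bounds of Slc29a1. The neighbours of Flt4 had a median of 0.22, with 9 of 10 above 0, and none reached the value of Flt4 itself, the nearest being Cnot6 at 0.48. The neighbours of Nrp2 had a median of -0.31, with 9 of 10 below 0, so that Nrp2 was higher than each of them. Kdr sits in a cluster of receptor tyrosine kinase genes with Pdgfra and Kit, which moved in opposite directions. Pdgfra, a marker of paraxial and cardiac mesoderm, had a log2 fold change of 0.88 and Kit, the stem cell factor receptor, one of -0.76. Neither was called with condition only (limma, adjusted p = 0.345 and 0.366), and both were called with the block (adjusted p = 0.00189 and 0.000787).

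**Figure D4:**
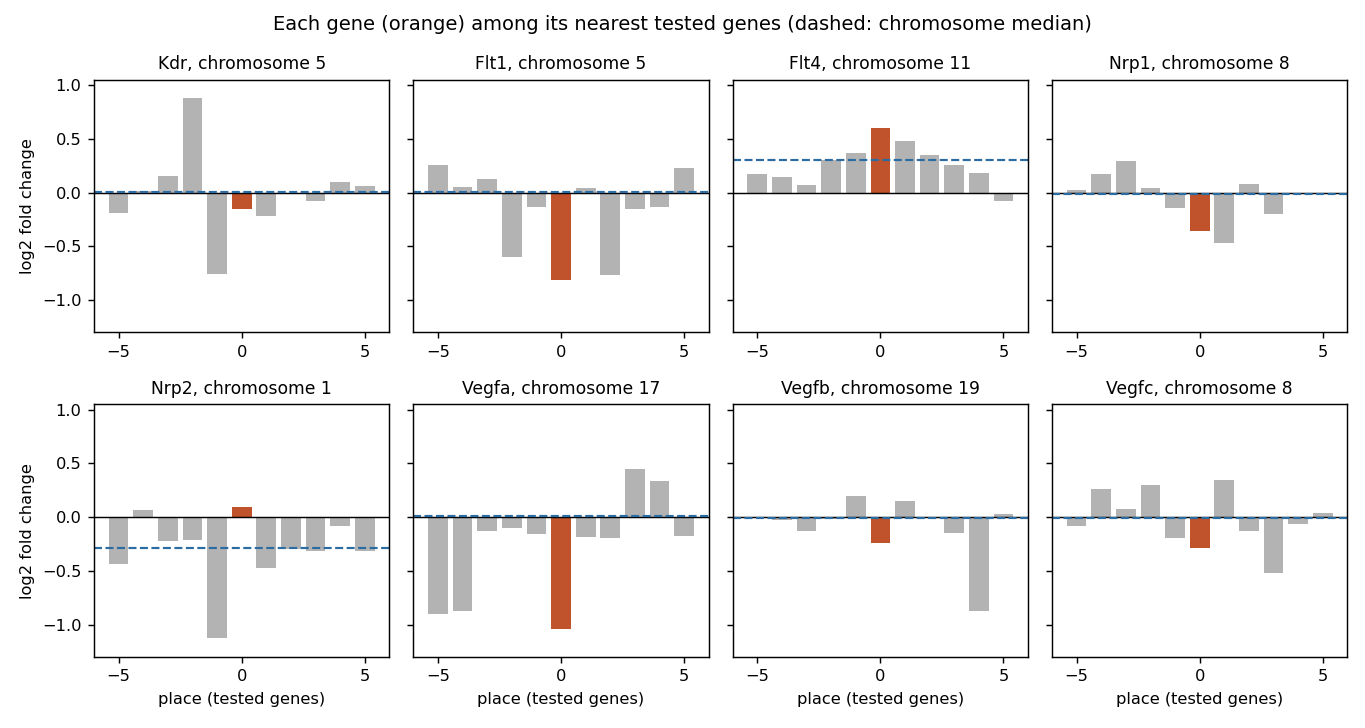
Log2 fold change, Scl-/- against WT (y axis), of each of the 8 genes (orange bar, place 0) and of up to 5 tested genes on each side in order of gene start (grey bars, x axis), with the median of the chromosome as a dashed line. Flt4 (0.61) stands above a chromosome median of 0.31 and Nrp2 (0.09) above one of -0.29, while the other chromosomes shown have medians near 0.

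Other genes of the VEGF pathway were taken from 6 lists of 113 genes written from general knowledge, of which 103 were tested. Their median log2 fold change was -0.062, and 6 (5.83%) were called with condition only, all lower, against 2.36% of all tested genes. With the block 15 (14.6%) were called, 11 lower and 4 higher, which is near the 12.6% called over all tested genes. Among 15 partners of the VEGF receptor complex, 4 (26.7%) fell: Cdh5 (VE-cadherin, log2 fold change -3.13), Ptprb (the phosphatase VE-PTP, -2.11), Itgb3 (integrin β3, -2.08) and Myo6 (a myosin of endocytic transport, -0.76). Ptprb stood at 39.5, 24.4 and 39.2 CPM in WT replicates 1 to 3 and at 6.19, 8.82 and 7.30 CPM in Scl-/- replicates 1 to 3. With the block 6 of the 15 (40.0%) were called, since Efnb2 (ephrin-B2) also fell (-1.06) and Robo4 (an endothelial guidance receptor) rose (0.55), both named after their values had been seen.

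Among 49 tested genes that carry the signal inside the cell, 1 (2.04%, against 2.36% of all tested genes) fell with condition only, Nos3 (endothelial nitric oxide synthase, log2 fold change -3.23). With the block 5 (10.2%) were called, 3 lower and 2 higher, below the 12.6% of all tested genes. Nos3 stood at 22.8, 11.2 and 31.5 CPM in WT replicates 1 to 3 and at 1.29, 1.28 and 2.81 CPM in Scl-/- replicates 1 to 3. The median of this list was -0.035, and the ubiquitous kinases, adaptors and small GTPases that fill it were mostly not called. Of 13 regulators of Vegfa transcription or mRNA stability, 1 (7.69%) fell in both models, against 2.36% and 12.6% of all tested genes called. It was Epas1 (HIF-2α), from 8.67 ± 0.642 to 3.33 ± 1.43 CPM (SD, n = 3 each, log2 fold change -1.32, limma adjusted p = 0.0488 with condition only), and the list had a median of -0.10. Of 17 tested genes known to respond quickly to VEGF, none was called with condition only, and the list median was -0.17. With the block 1 (5.88%) rose, Dusp6 (an ERK phosphatase, 1.03), below the 12.6% called over all tested genes. Of 8 tested plexins and semaphorins, which share the neuropilins, none was called with condition only. With the block 2 of them (25.0%, against 12.6% of all tested genes) fell, Sema3a (-0.60), a ligand of NRP1, and Sema3f (-0.58), a ligand of NRP2.

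**Figure D5:**
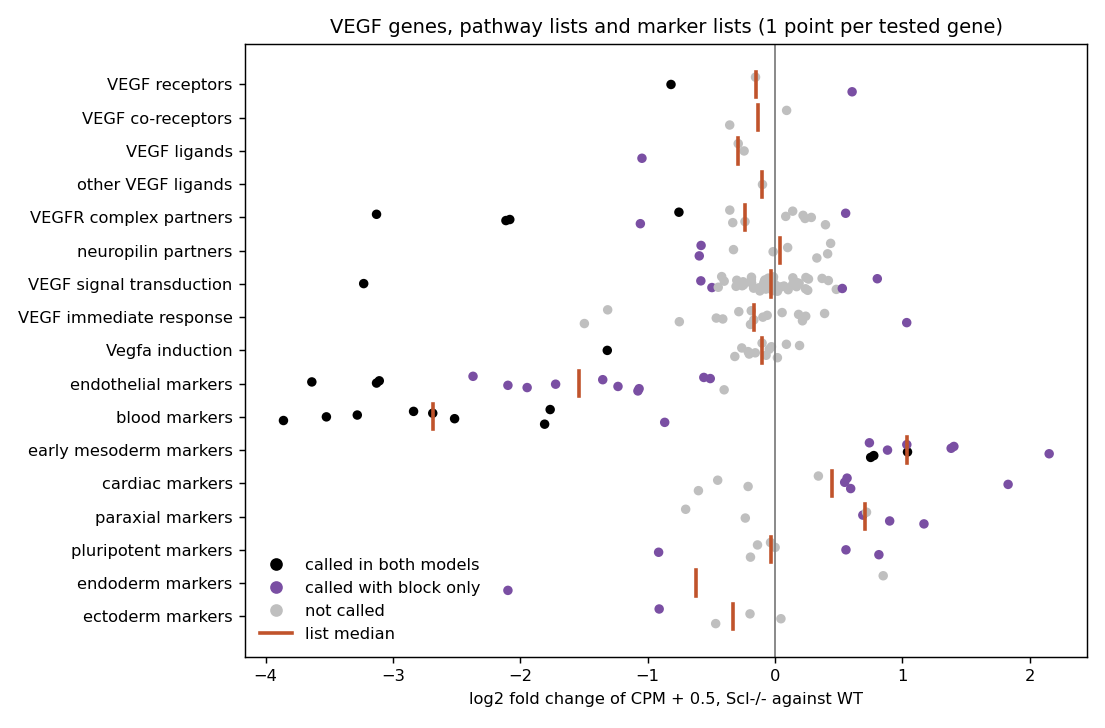
Log2 fold change of CPM + 0.5, Scl-/- against WT (x axis), of every tested gene of each list (y axis, 1 point per gene), coloured black where called in both models, purple where called with the replicate block only and grey where not called, with the list median as an orange line. The pathway lists have medians near 0 (from -0.24 to 0.042), the endothelial and blood marker lists lie lower (-1.54 and -2.69) and the early mesoderm markers higher (1.04).

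Markers of the cell types that FLK1+ mesoderm can hold moved with the genotype as well. All 14 tested endothelial markers were lower in the Scl-/- libraries, with a median log2 fold change of -1.54. With condition only 3 of them (21.4%) were called and with the block 13 (92.9%), against 2.36% and 12.6% of all tested genes. The summed level of these markers was 386 to 832 CPM in WT and 154 to 274 CPM in Scl-/-, none was at 0, and Cdh5 belongs to this list too. Pecam1, a defining endothelial gene, stood at 12.6, 7.84 and 16.4 CPM in WT and at 5.27, 2.37 and 8.10 CPM in Scl-/- replicates 1 to 3, and Tek (TIE2) had a log2 fold change of -1.95. Flt1, Kdr, Flt4 and the neuropilins are themselves expressed in endothelium, and in bulk RNA fewer cells of a type and less RNA per cell cannot be told apart. The part of the endothelial markers in the changes of Flt1, Vegfa and the pathway genes was not tested.

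Of 9 tested blood markers 8 (88.9%) fell with condition only (median -2.69), with summed levels of 123 to 209 CPM in WT and 23.7 to 37.9 CPM in Scl-/-. Gata1 stood at 6.85 ± 3.61 CPM in WT and 0.192 ± 0.0417 CPM in Scl-/- (SD, n = 3 each). Hbb-bh1 was low in WT, at 1.33, 0.601 and 1.94 CPM in replicates 1 to 3, and was at 0 in all Scl-/- libraries. All 9 early mesoderm markers were higher in Scl-/-, 3 (33.3%) called with condition only and 9 (100%) with the block (median 1.04), with summed levels of 877 to 1542 CPM in WT and 1585 to 3046 CPM in Scl-/-. Over all tested genes 2.36% and 12.6% were called. The list includes Pdgfra, which also marks paraxial and cardiac mesoderm, and Mesp1, which the authors used as a cardiac marker. T (Brachyury), a defining gene of mesoderm, was at 227 ± 30.5 CPM in WT and 381 ± 61.1 CPM in Scl-/-, so that it was expressed in both groups. The share of mesodermal cells was not measured. None of the 8 tested cardiac (median 0.44), 6 paraxial (0.70), 7 pluripotent (-0.036), 2 endoderm (-0.62) and 4 ectoderm markers (-0.33) was called with condition only. With the block, which called 12.6% of all tested genes, 4 cardiac and 3 paraxial markers were called higher, 2 pluripotent markers higher and 1 lower, and 1 endoderm and 1 ectoderm marker lower. The cardiac and paraxial lists did not move as a whole. Of the cardiac markers 5 had a log2 fold change above 0 and 3 below 0, and of the paraxial markers 4 above and 2 below. The pluripotent markers called higher were Pou5f1 (log2 fold change 0.56) and Nanog (0.82), and the one called lower was Esrrb (-0.91). The endoderm marker called lower was Sox17 (-2.10), which is in the endothelial list too, while the other endoderm gene, Cer1, had a value of 0.85. Summed levels were 717 to 805 and 815 to 869 CPM for the cardiac list, 19.9 to 90.3 and 23.9 to 158 CPM for the paraxial list, 131 to 208 and 120 to 287 CPM for the pluripotent list, 8.34 to 22.4 and 3.12 to 8.44 CPM for the endoderm list and 473 to 602 and 297 to 588 CPM for the ectoderm list, WT first. Afp and Sox1 were not analysed here.

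The genes whose pattern was most like that of each member were found by Pearson's r over the 6 libraries, as a description without a test, since the libraries fall into 2 genotypes and r rests in part on that step. For Kdr they were Rnf165 (r = 0.997), Ttc7b (0.994) and Hibch (0.991), and for Flt1 they were Wnk2 (0.995), Pkia (0.994) and Zfat (0.994). For Flt4 they were Slc31a2 (0.993), H2-T22 (0.991) and Eif2ak3 (0.989), and for Vegfa they were Zfp28 (0.996), Mybph (0.994) and Tdrp (0.994). Those of the co-receptors were an unnamed gene, ENSMUSG00000087156 (0.994), Gm20544 (0.991) and Fam175b (0.990) for Nrp1 and 8430419L09Rik (0.985), Zfp518b (0.985) and Zfp2 (0.985) for Nrp2. Those of the other ligands were Ap1s1 (0.994), 1700021F05Rik (0.993) and Gm17041 (0.992) for Vegfb and Snx14 (0.994), Stk38l (0.992) and Synj1 (0.991) for Vegfc. None of these genes was called with condition only, and such likeness was common except for Nrp2. The tested genes above r = 0.95 numbered 83 for Kdr, 136 for Flt1, 70 for Flt4 and 87 for Nrp1. They numbered 168 for Vegfa, 137 for Vegfb and 111 for Vegfc, but 8 for Nrp2.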

How the data were processed

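RNA-seq libraries of FLK1+ cells from day 3.5 EBs were grouped by the genotype in the labels, 3 WT and 3 Scl-/-. The authors aligned reads to mm9 with TopHat2 2.0.8b, removed duplicate read pairs, filtered on mapping quality with SAMtools 0.1.19, normalised with TMM in edgeR and deposited CPM values for 14005 genes. The tool and annotation used for counting are not given in the sources used here. Removal of duplicates can hold down highly expressed genes. Every value was a whole multiple of 1 step per library (tolerance 0.01 read), from which reads were worked out, and column sums were 976038 to 1017907 CPM. Floors given in reads cover counting error only. A count model was not run, since the deposited unit is CPM and the reads worked out here served only to describe depth and floors.

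Values were taken as log2(CPM + 0.5), and a gene had to reach 0.5 CPM in 3 or more libraries (13991 did, 14 did not, none of them a VEGF gene). The test was limma 3.58.1 under R 4.3.3 (lmFit, eBayes with an intensity trend, condition only), with Benjamini-Hochberg adjustment over all tested genes. The same model was fitted with the replicate number as a block. The labels number the libraries of both groups 1 to 3 and the series describes 3 independent differentiations. The deviations of same-numbered libraries from their group means correlated at 0.588 to 0.756 across genes, so the numbers were taken as pairs. Those of different numbers correlated at -0.621 to -0.0996. These negative values are in part arithmetic, since deviations within a group of 3 cancel out. The fit was tested on simulated data. Ratios were compared by exact permutation. Positions and exon lengths are from GENCODE vM1 on mm9, and upstream windows from RefSeq (GRCm38.p6), all 8 genes matching by symbol, placed in mm9 by exact match. Other steps ran in Python 3.11.15 with pandas 2.3.3, NumPy 2.4.6 and SciPy 1.17.1, and Matplotlib 3.10.9 drew the plots.

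The VEGF genes, the pathway and marker lists and the tests were chosen with earlier results of these data known. Named genes are the 8 members, the 3 genes most like each by Pearson's r, pathway genes called with condition only with Figf and Pgf, and the defining markers Pecam1, Cdh5, Tek, Gata1, Hbb-bh1, T, Pdgfra, Pou5f1, Afp, Sox1 and Tal1. Pathway genes called with the block only, single neighbouring genes and the markers Mesp1, Nanog, Esrrb, Sox17 and Cer1 were named after their values had been seen. Alternatives were pseudocounts of 0.1 and 1, other filters, the block, median-ratio rescaling, no intensity trend, each library left out, removal of chromosome medians and other fold thresholds.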

Additional observations from a re-analysis of the deposited data

How the results depend on the processing

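The replicate block raised the number of VEGF genes called from 1 to 3, of pathway genes from 6 to 15 and of all genes from 330 to 1768, by a smaller standard error at the same fold changes. With the block and the chromosome medians removed the counts were 2, 14 and 1492. Leaving out 1 library at a time with condition only gave 0 to 2 VEGF genes, 0 to 5 pathway genes and 34 to 384 genes in all, lowest without WT replicate 1. Leaving out 1 pair at a time with the block, an alternative added after the data had been seen, gave 2 to 4, 13 to 20 and 1069 to 2038 (1159 without pair 3). No VEGF gene was called with no intensity trend, where 2 of 8 had an unadjusted p below 0.05, or with a fold-change threshold of 1, where 3 had. Nrp2 ran from -0.054 to 0.22 on leaving out 1 library at a time, turned negative without Scl-/- replicate 3 (-0.054) and, with the block, without replicate 3 (-0.081), and no other VEGF gene changed direction in the alternatives run. The pseudocounts, the filters, the rescaling and removal of chromosome medians alone left the call of each VEGF gene as it was. The 5 ratios kept their direction with both other pseudocounts, over pairs and on leaving out each library, which were the alternatives run on them, but their exact permutation test cannot pass the threshold with 3 libraries against 3, so this says nothing of their significance. Fitted on all 6 libraries, the block changed the calls of Flt4 and Vegfa and of no other VEGF gene. Each VEGF gene had at least 529 reads in every library, and 3 libraries a group limit what can be called.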
